A study of Mus musculus with 12 samples.

Results

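Periostin (Postn), tenascin-C (Tnc), thrombospondins 1 and 2 (Thbs1, Thbs2), osteonectin (Sparc), TGF-beta-induced protein (Tgfbi), fibronectin (Fn1), elastin (Eln) and fibrillin-1 (Fbn1) were followed through cultured mouse mesenchymal stem cells that lacked or kept Dicer. These 9 genes were taken by name, 1 row each, from a deposited table of 21881 genes, and they were chosen by name with earlier results of these data known, above all the measured difference of Postn and Tnc between KO_siCtrl and WT_siCtrl cells. All 9 were found, and 8 of them reached 1 FPKM in at least 3 of the 12 libraries, the minimum set for a test, as did 11801 genes in all. Elastin did not reach it and was not tested. FPKM, the unit of the table, divides fragment numbers by transcript length and by the library's mapped total, so levels of different genes can be set side by side per length.

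Matricellular proteins are secreted into the matrix around cells but act mainly as signals and adaptors and less as scaffolding. They bind integrins, growth factors and collagen, and are made at high levels by mesenchymal cells of bone, tendon and healing wounds. Fibronectin, fibrillin and elastin are structural neighbours: fibronectin fibrils and fibrillin microfibrils form early matrix, carry latent TGF-beta complexes and guide elastin and collagen into place. Dicer is the RNase that cuts microRNA precursors to their mature form, so a duplex that is already mature can be supplied to cells without it.

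The libraries fell into 4 groups of 3. In the group KO_let-7g, Dicer -/- cells received a synthetic let-7g duplex, a microRNA of the let-7 family. In KO_siNr6a1, the Dicer -/- cells received an siRNA against Nr6a1, a nuclear receptor of the germ cell nuclear factor type. In KO_siCtrl, Dicer -/- cells received a nontargeting siRNA, and in WT_siCtrl cells with intact floxed alleles (Dicer f/f) received the same nontargeting siRNA. All cells were immortalized monoclonal lines of bone marrow origin from C57BL/6 mice, grown with serum, and RNA was taken 48 hours after transfection at 20 nM. A clone's own properties and its genotype cannot be told apart, because no source used here gives the number of lines per genotype. The labels number the libraries 0, 1 and 2 in each group without stating whether each was its own culture. The p-values therefore speak to the variation among these 12 libraries, which can be technical.

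The read number per library is unknown. A relative depth read from genes of very low FPKM was 1.34 to 1.82 in KO_let-7g, 1.13 to 1.57 in KO_siNr6a1, 1 to 1.31 in KO_siCtrl and 1.11 to 1.29 in WT_siCtrl, and 11032 to 11465 genes reached 1 FPKM in a library. Nr6a1 averaged 4.22 ± 1.04 FPKM in KO_let-7g, 3.68 ± 0.539 in KO_siNr6a1, 11.7 ± 1.32 in KO_siCtrl and 1.118 ± 0.158 in WT_siCtrl (SD, n = 3 each). By limma it fell in KO_siNr6a1 (log2 change -1.44, adjusted p = 7.34e-05) and in KO_let-7g (-1.30, adjusted p = 4.67e-05) against KO_siCtrl. Dicer1 still read 3.86 ± 0.214 FPKM in KO_siCtrl, against 6.58 ± 1.45 in WT_siCtrl (SD, n = 3 each), and the table does not separate the deleted exons from the rest of the transcript. Of 17 mesenchymal stem cell markers, Thy1 was at 0 in all but 1 library and Lepr stayed below 1 FPKM, while Eng, Cd44, Ly6a, Pdgfrb and Vcam1 were expressed in every group. The levels differed between the genotypes. Of 15 tested, 5 were called higher and 8 lower in KO_siCtrl against WT_siCtrl by limma, where 54.3% of all genes were called. Mcam averaged 3.52 FPKM in KO_siCtrl and 44.4 in WT_siCtrl, Col1a2 283 and 1378, and Ly6a, in the other direction, 48.8 and 17.8. All 7 endothelial markers, 8 of 9 blood cell markers and 5 of 7 epithelial markers stayed below 1 FPKM in every library.

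The let-7g strand that pairs with messages and the match to it among the 9 genes are printed because one of the treatments was this microRNA. Capitals mark the seed, bases 2 to 8 of the microRNA, and the letters that pair with it, including the A that a 7mer-A1 match has opposite base 1. The mature strand is RefSeq's, from chr9:106178846-106178867 on the plus strand (GRCm38.p6). Matches were searched in the longest annotated 3′ UTR of each gene in GENCODE M21 (GRCm38), a newer build than the mm9 used for the deposited values.
mmu-let-7g-5p: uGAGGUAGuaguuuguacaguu
Thbs1 7mer-A1: acttctatacaaatatTACCTCA
Thbs1 held the single match of the 9 genes, in its terminal exon at chr2:118126523-118126545 on the plus strand, bases 1510 to 1516 of a 3′ UTR of 2104 bases. The other 8 had none in 3′ UTRs of 601 to 2013 bases. For scale, 16.7% of 10212 genes past the filter held an 8mer or 7mer match, and Nr6a1 held 8 matches, 3 of them 8mers. A match is a description of letters, not a shown site of regulation.

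Postn and Tnc had the largest differences between the genotypes of the 8 genes tested, so their promoter letters are printed too, from RefSeq (GRCm38.p6). Each window runs from 250 bases before a start site to 50 after it, and for each gene the downstream one of 2 annotated starts is given. Capitals mark TATAAA, and in Tnc also CAGACA or its reverse complement, the SMAD motif searched.
Postn chr3:54360857-54361156 plus strand: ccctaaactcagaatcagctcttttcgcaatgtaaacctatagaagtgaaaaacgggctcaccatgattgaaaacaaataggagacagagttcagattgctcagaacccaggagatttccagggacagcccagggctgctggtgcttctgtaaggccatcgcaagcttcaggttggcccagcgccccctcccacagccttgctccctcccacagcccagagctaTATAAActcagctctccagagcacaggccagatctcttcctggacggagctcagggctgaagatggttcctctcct
Tnc chr4:64046887-64047186 minus strand: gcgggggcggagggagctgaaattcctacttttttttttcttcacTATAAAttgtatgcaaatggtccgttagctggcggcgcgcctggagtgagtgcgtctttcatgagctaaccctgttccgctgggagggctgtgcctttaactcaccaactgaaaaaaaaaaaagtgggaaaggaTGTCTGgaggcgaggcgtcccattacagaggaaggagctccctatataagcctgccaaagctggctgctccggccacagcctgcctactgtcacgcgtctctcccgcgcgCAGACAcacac
In Postn TATAAA lay at -26 to -21 of the start. In Tnc TATAAA lay at -205 to -200, and CAGACA matched at -71 to -66 on the reverse strand and at 40 to 45 on the forward strand. The search took the exact letters TATAAA only, so the similar tatataa between the CAGACA matches of the Tnc window is not marked. Of 32851 promoters of this length, searched on both strands, 13.6% held TATAAA and 21.0% held CAGACA. Neither window held the letters of a CArG box (the motif named for serum response factor, in 1.63% of promoters), of GGAATG (TEAD, 14.7%) or of AGGTCA (the nuclear receptor motif, 16.3%), which says only that these letters are not in these windows. The window of the upstream Postn start (chr3:54359017-54359316, plus strand) did hold AGGTCA, on the reverse strand at -138 to -133. The extended form TCAAGGTCA (0.423% of promoters) was searched too, and no window of the 6 genes with a promoter held it. No RefSeq promoter was matched for 3 of the 9 genes. The window of Sparc also held CAGACA, at -36 to -31 and at 15 to 20 on the reverse strand. The window of Thbs2 held CAGACA at -67 to -62 and -44 to -39, and TATAAA at -126 to -121, all on the reverse strand.

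Postn encodes periostin, a fasciclin-domain protein of periosteum and other collagen-rich tissue that binds integrins and helps collagen crosslinking. It read 2.68, 2.80 and 0.816 FPKM in the KO_let-7g libraries 0, 1 and 2, and 7.43, 17.1 and 5.23 FPKM in KO_siNr6a1. It read 1.84, 3.80 and 1.11 FPKM in KO_siCtrl, and 225, 263 and 176 FPKM in WT_siCtrl. Every library without Dicer lay far below every library with it, KO_siNr6a1 lay above the other Dicer -/- groups, and KO_let-7g and KO_siCtrl overlapped. In each of the 4 groups library 1 held the highest and library 2 the lowest value. The mean was 98.3-fold lower in KO_siCtrl than in WT_siCtrl, a log2 difference of -6.16 on the log2(FPKM + 1) scale, which understates changes of genes with low FPKM. That contrast is given without a test, because the 9 genes were chosen with it known. In bulk RNA, fewer cells that express a gene and less RNA per cell cannot be told apart.

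With the siRNA against Nr6a1, Postn was 4.40-fold above KO_siCtrl, and the ratio was 4.03, 4.50 and 4.70 in libraries 0, 1 and 2. The log2 change of 1.68 ± 0.42 (SE, 95% interval 0.76 to 2.61) passed limma's moderated test with a Benjamini-Hochberg adjusted p of 0.0121. The level reached 4.48% of the WT_siCtrl mean, against 1.02% in KO_siCtrl. With let-7g the log2 change from KO_siCtrl was -0.06 (95% interval -0.99 to 0.86, limma adjusted p = 0.923). Set directly against each other, Postn was 4.72-fold lower in KO_let-7g than in KO_siNr6a1 (log2 change -1.74 ± 0.42 SE, limma adjusted p = 0.00704). The fold itself uses no control library, but the SE and adjusted p rest on a spread estimated over all 12 libraries.

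Tnc encodes tenascin-C, a large hexameric glycoprotein of developing and injured tissue that modulates adhesion to fibronectin. It read 4.09, 4.80 and 2.71 FPKM in the KO_let-7g libraries, and 11.9, 16.02 and 7.78 FPKM in KO_siNr6a1. It read 4.71, 4.76 and 4.44 FPKM in KO_siCtrl, and 259.9, 388 and 267 FPKM in WT_siCtrl. As with Postn, the lowest WT_siCtrl library was far above the highest library without Dicer, KO_siNr6a1 stood clear of KO_siCtrl, and KO_let-7g overlapped KO_siCtrl. The mean was 65.8-fold lower in KO_siCtrl than in WT_siCtrl. In KO_siNr6a1 it rose 2.57-fold over KO_siCtrl (log2 change 1.14 ± 0.24 SE, limma adjusted p = 0.00479), to 3.90% of the WT_siCtrl mean. In KO_let-7g the log2 difference from KO_siCtrl was -0.24 (95% interval -0.76 to 0.29, limma adjusted p = 0.449). The direct contrast put Tnc 3.08-fold lower in KO_let-7g than in KO_siNr6a1 (log2 change -1.38 ± 0.24 SE, limma adjusted p = 0.00107).

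**Figure D1:**
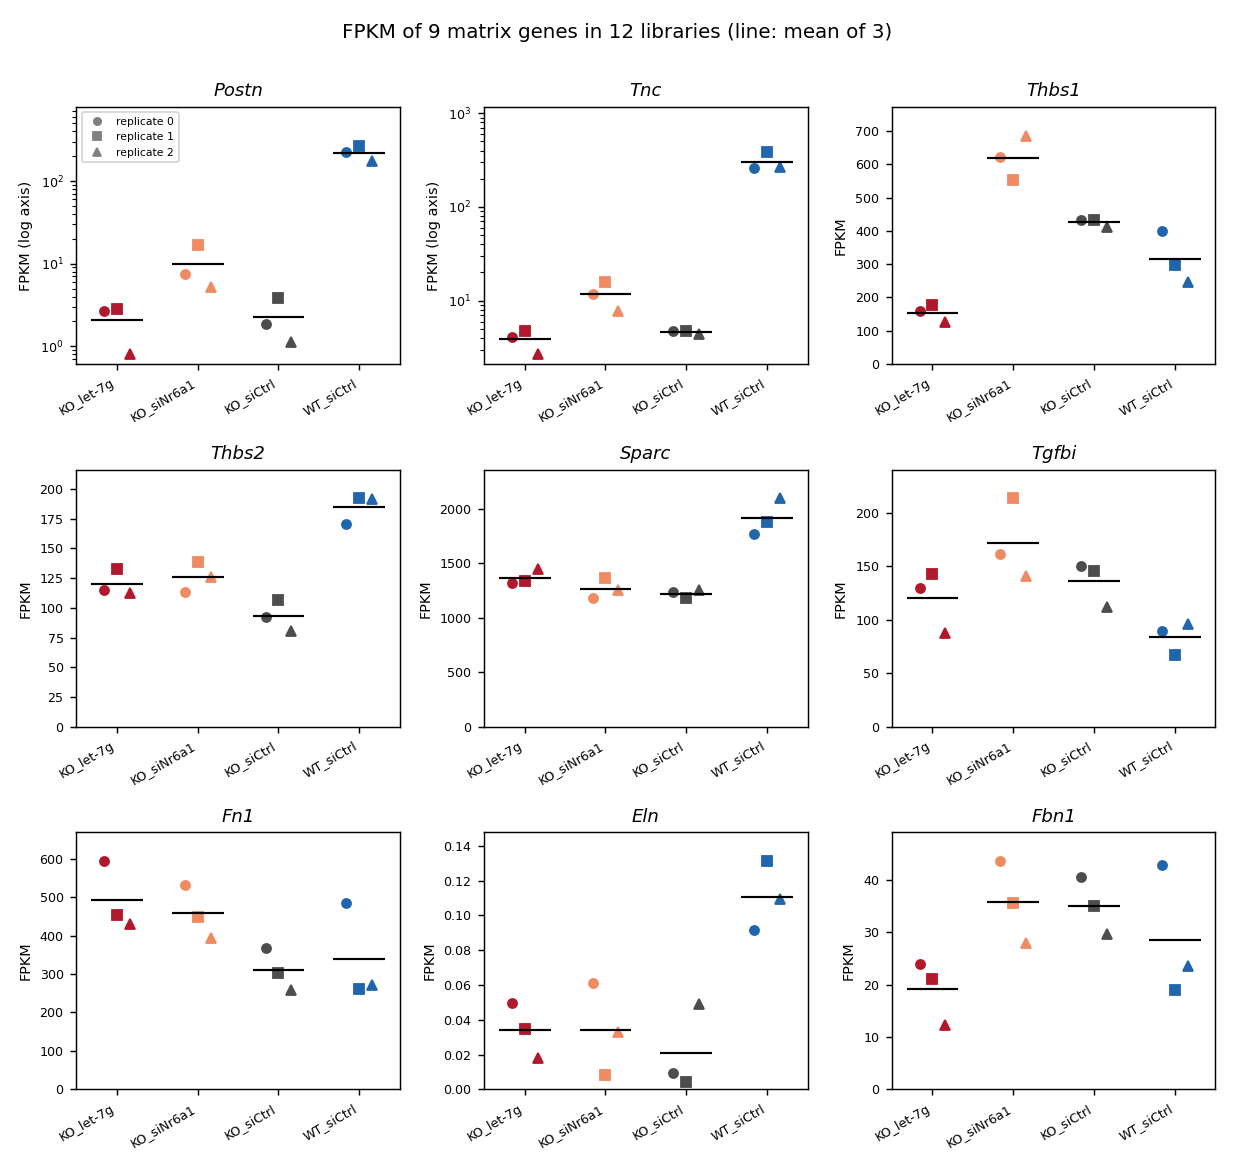
FPKM of the 9 genes in each of the 12 libraries, by group along the horizontal axis, with a line at the mean of 3. Postn and Tnc are on a log axis and the other genes on a linear axis from 0. Symbols give the library number. Postn and Tnc show WT_siCtrl far above all other groups, Thbs1 shows KO_let-7g as the lowest group, and Eln stays below 0.14 FPKM throughout.

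Over the 4 group means, each centred on its own mean of log2(FPKM + 1), Tnc was the gene of these 9 closest to Postn, with a root mean square difference of 0.21. Outside the 9, the nearest to Postn was Acta2, the actin of smooth muscle and myofibroblasts, at 0.26, followed by Il1rn (an interleukin-1 receptor antagonist) at 0.54 and Sfrp2 (a secreted Wnt modulator) at 0.59. Nearest to Tnc were Acta2 at 0.20, Il1rn at 0.39 and Actg2, a second smooth muscle actin, at 0.43. Acta2 averaged 20.5 ± 4.76 FPKM in KO_let-7g, 41.5 ± 4.47 in KO_siNr6a1, 17.1 ± 2.27 in KO_siCtrl and 1283 ± 144 in WT_siCtrl (SD, n = 3 each). The likeness rests on 4 means only. These include KO_siCtrl and WT_siCtrl, where the log2 differences were -6.16 for Postn, -5.74 for Tnc and -6.15 for Acta2. Postn and Tnc were chosen with that contrast known, so nothing further is read from their closeness or from that of genes with a like difference. Il1rn averaged 0.372 FPKM in KO_let-7g, 0.684 in KO_siNr6a1 and 0.136 in KO_siCtrl, and Actg2 0.440, 0.666 and 0.322. These values lie below the 1 added to FPKM, so the distances of Il1rn and Actg2 depend on it.

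Some smooth muscle and myofibroblast markers differed between the groups as well. The summed FPKM of the 10 listed, most of it from Acta2 in WT_siCtrl, was 76.8 to 83.7 in KO_let-7g, 91.6 to 103 in KO_siNr6a1, 62.6 to 72.6 in KO_siCtrl and 1680 to 2042 in WT_siCtrl, and of 8 tested, 6 fell in KO_siCtrl against WT_siCtrl by limma, where 25.2% of all genes were called lower. Smtn (log2 difference -0.03) and Des (0.32) were not called there. Cnn1 and Actg2 stayed below 1 FPKM in every Dicer -/- library (at most 0.327 and 0.957). They met the minimum for a test only through WT_siCtrl, so their calls in that contrast were largely fixed by the filter. Of the 8, Acta2 and Myl9 rose in KO_siNr6a1 against KO_siCtrl (log2 changes 1.24 and 0.59, limma adjusted p = 0.000351 and 0.00873). Tagln and Myl9 rose in KO_let-7g against KO_siCtrl (0.62 and 0.65, limma adjusted p = 0.0112 and 0.00306), a comparison in which neither Postn nor Tnc was called. Of the 8, Acta2 was the one called between the treatments, lower in KO_let-7g than in KO_siNr6a1 (log2 change -1.003, limma adjusted p = 0.000801). Myh11, a defining marker of differentiated smooth muscle, and Synpo2 stayed below 1 FPKM in every library. The part of these markers in the levels of Postn and Tnc was not tested.

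**Figure D2:**
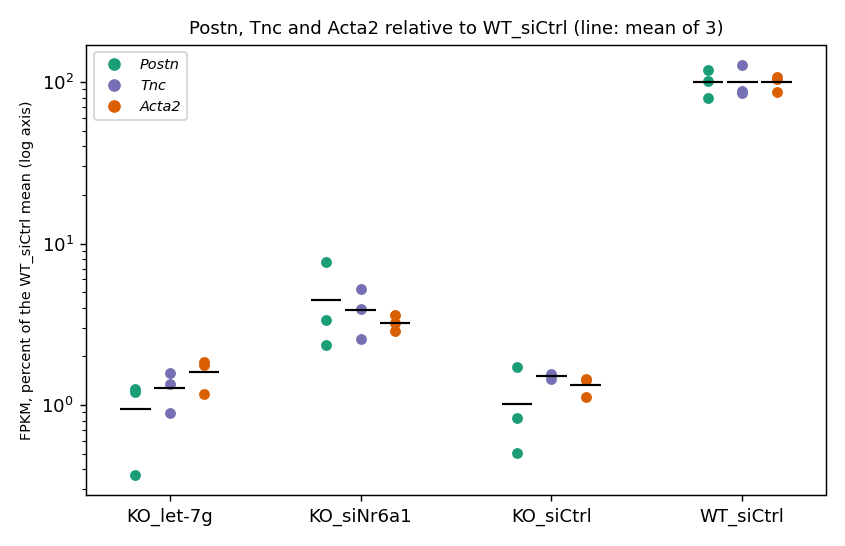
FPKM of Postn, Tnc and Acta2 as a percentage of each gene's WT_siCtrl mean, on a log axis, by group; points are libraries and lines are means of 3. All libraries without Dicer lie below 10% of the WT_siCtrl mean, with the mean of KO_siNr6a1 at 4.48% for Postn and 3.90% for Tnc.

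Thbs1 encodes thrombospondin-1, a trimer that binds CD47 and CD36, restrains angiogenesis and can activate latent TGF-beta. It read 159, 178 and 126 FPKM in the KO_let-7g libraries, and 621, 552 and 686 FPKM in KO_siNr6a1. It read 432, 433 and 412 FPKM in KO_siCtrl, and 401, 297 and 247 FPKM in WT_siCtrl. No pair of groups overlapped, and the order from low to high was KO_let-7g, WT_siCtrl, KO_siCtrl and KO_siNr6a1. In KO_let-7g Thbs1 fell 2.75-fold against KO_siCtrl (log2 change -1.47 ± 0.17 SE, limma adjusted p = 5.45e-05), and it kept that call under all alternatives run. Against KO_siNr6a1 it was 4.01-fold lower in KO_let-7g (log2 change -2.005 ± 0.17 SE, limma adjusted p = 1.76e-05). Thbs1 is the gene with the let-7 seed match printed above. The summed FPKM of 9 blood cell markers was also apart in KO_let-7g, at 4.77 to 7.14, against 1.83 to 2.01 in KO_siNr6a1, 2.03 to 3.02 in KO_siCtrl and 1.97 to 2.56 in WT_siCtrl. That sum came mostly from Cd68, while Ptprc, which defines leukocytes, stayed below 0.02 FPKM in every library, and the part of these markers was not tested.

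In KO_siNr6a1 Thbs1 rose 1.46-fold over KO_siCtrl (log2 change 0.54 ± 0.17 SE, limma adjusted p = 0.0355). That call was lost in 6 of 21 alternatives: without the filter, without any of the 3 KO_siCtrl libraries, and without KO_siNr6a1 library 0 or 2, where the adjusted p was 0.0733 to 0.119. It was 1.35-fold higher in KO_siCtrl than in WT_siCtrl.

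Thbs2 encodes thrombospondin-2, which binds matrix metalloproteinases and whose loss in mice gives abnormal collagen fibrils. It read 115, 132 and 113 FPKM in the KO_let-7g libraries, and 114, 138 and 126 FPKM in KO_siNr6a1. It read 92.2, 107 and 80.8 FPKM in KO_siCtrl, and 170.4, 192 and 192 FPKM in WT_siCtrl. WT_siCtrl lay above all other groups, the treated groups overlapped each other, and both lay above KO_siCtrl. Thbs2 rose 1.29-fold in KO_let-7g over KO_siCtrl (log2 change 0.37 ± 0.11 SE, limma adjusted p = 0.0213) and 1.35-fold in KO_siNr6a1 over KO_siCtrl (0.43 ± 0.11 SE, adjusted p = 0.0147). The first call was lost under median-of-ratios scaling and without KO_siCtrl library 0 or 2 or KO_let-7g library 1 (adjusted p up to 0.0851), and the second without KO_siCtrl library 2 or KO_siNr6a1 library 1 (up to 0.0598). The direct difference was -0.07 on the log2 scale (95% interval -0.32 to 0.18, limma adjusted p = 0.662). The levels correspond to 65.0% of the WT_siCtrl mean in KO_let-7g, 68.2% in KO_siNr6a1 and 50.5% in KO_siCtrl.

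The ratio of Thbs1 to Thbs2 FPKM set the let-7g libraries apart from the other Dicer -/- libraries. It was 1.385, 1.347 and 1.118 in KO_let-7g, 5.46, 3.99 and 5.44 in KO_siNr6a1, 4.68, 4.05 and 5.09 in KO_siCtrl, and 2.35, 1.54 and 1.29 in WT_siCtrl. KO_let-7g overlapped WT_siCtrl, through WT_siCtrl library 2 alone, and KO_siNr6a1 overlapped KO_siCtrl. The likeness to WT_siCtrl is of the ratio only, since Thbs1 and Thbs2 each lay below WT_siCtrl in every KO_let-7g library.

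Sparc encodes osteonectin, a collagen-binding protein abundant in bone, and was the most abundant of the 9, ranked 16 to 30 among all genes in every library. It read 1323, 1337 and 1447 FPKM in the KO_let-7g libraries, and 1181, 1362 and 1251 FPKM in KO_siNr6a1. It read 1233, 1183 and 1252 FPKM in KO_siCtrl, and 1772, 1875 and 2098 FPKM in WT_siCtrl. WT_siCtrl stood above the rest, and KO_let-7g lay just above KO_siCtrl in every library. The log2 difference was 0.16 for KO_let-7g (95% interval -0.05 to 0.37, limma adjusted p = 0.192) and 0.05 for KO_siNr6a1 (-0.16 to 0.26, adjusted p = 0.755), each against KO_siCtrl, so neither passed. KO_siCtrl was lower than WT_siCtrl by a log2 difference of -0.64, or -0.27 after quantile normalization. The patterns nearest to Sparc were those of Pcnx, G6pc3 and Ptpn11, at 0.016 to 0.022.

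Tgfbi encodes a fasciclin-domain protein related to periostin and named for its induction by TGF-beta. It read 129.7, 142 and 87.8 FPKM in the KO_let-7g libraries, and 162, 213 and 141 FPKM in KO_siNr6a1. It read 149.9, 145 and 112 FPKM in KO_siCtrl, and 89.4, 66.9 and 95.6 FPKM in WT_siCtrl. KO_siNr6a1 and KO_siCtrl lay above WT_siCtrl, by 1.62-fold of the mean for KO_siCtrl, KO_let-7g overlapped WT_siCtrl, and the 3 Dicer -/- groups overlapped each other. Neither treatment passed against KO_siCtrl (log2 differences -0.19 for KO_let-7g and 0.33 for KO_siNr6a1, limma adjusted p = 0.487 and 0.272). The log2 difference of KO_let-7g from KO_siNr6a1 was -0.52 (limma adjusted p = 0.0698), which passed with the library number as a block (adjusted p = 0.0433), under median-of-ratios scaling (0.0264) and without KO_let-7g library 1 (0.0469).

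Fn1 encodes fibronectin, the adhesive dimer on which much of the early matrix is assembled. It read 594, 453 and 429 FPKM in the KO_let-7g libraries, and 531, 449 and 394 FPKM in KO_siNr6a1. It read 368, 304 and 258 FPKM in KO_siCtrl, and 486, 259.7 and 271 FPKM in WT_siCtrl. Both treated groups lay above KO_siCtrl, and WT_siCtrl, spread by its library 0, overlapped all the others. In all 4 groups library 0 was the highest. Fn1 rose 1.59-fold in KO_let-7g over KO_siCtrl (log2 change 0.67 ± 0.23 SE, limma adjusted p = 0.0375). This call was lost in 7 of 21 alternatives (adjusted p up to 0.131): with no filter, under median-of-ratios and quantile scaling, and without KO_siCtrl library 1 or 2 or KO_let-7g library 0 or 1. For KO_siNr6a1 the log2 difference of 0.57 did not pass (limma adjusted p = 0.0920), but did with the library number as a block (0.00314), in a fit of those 2 groups alone (0.0407) and without WT_siCtrl library 0 (0.0228).

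Fbn1 encodes fibrillin-1, the backbone of microfibrils. It read 24.0, 21.1 and 12.3 FPKM in the KO_let-7g libraries, and 43.7, 35.7 and 28.0 FPKM in KO_siNr6a1. It read 40.6, 35.1 and 29.7 FPKM in KO_siCtrl, and 43.0, 18.9 and 23.6 FPKM in WT_siCtrl. KO_let-7g lay below both other Dicer -/- groups, which overlapped each other, and WT_siCtrl overlapped all. Library 0 was again the highest of each group. Fbn1 fell in KO_let-7g against KO_siCtrl (1.83-fold lower, log2 change -0.88 ± 0.30 SE, limma adjusted p = 0.0335) and against KO_siNr6a1 (1.87-fold lower, -0.89 ± 0.30 SE, adjusted p = 0.0346). The first call was lost with no filter and without KO_siCtrl library 0 or 1 or KO_let-7g library 2 (adjusted p up to 0.130), the second with no filter and without KO_let-7g library 2 or KO_siNr6a1 library 0 or 1 (up to 0.134). KO_siNr6a1 differed from KO_siCtrl by 0.01 on the log2 scale (95% interval -0.65 to 0.68, limma adjusted p = 0.979).

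Eln encodes elastin, the elastic core that is laid down on fibrillin microfibrils. It was listed at 0.0178 to 0.0497 FPKM in KO_let-7g, 0.0082 to 0.0609 in KO_siNr6a1, 0.00449 to 0.0491 in KO_siCtrl and 0.0917 to 0.131 in WT_siCtrl. These values are too low to test. Tnc, Thbs1, Fn1, Eln and Fbn1 each overlap an annotated gene on the opposite strand, and no source used here states if counting was stranded, so reads of such partners cannot be told apart.

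**Figure D3:**
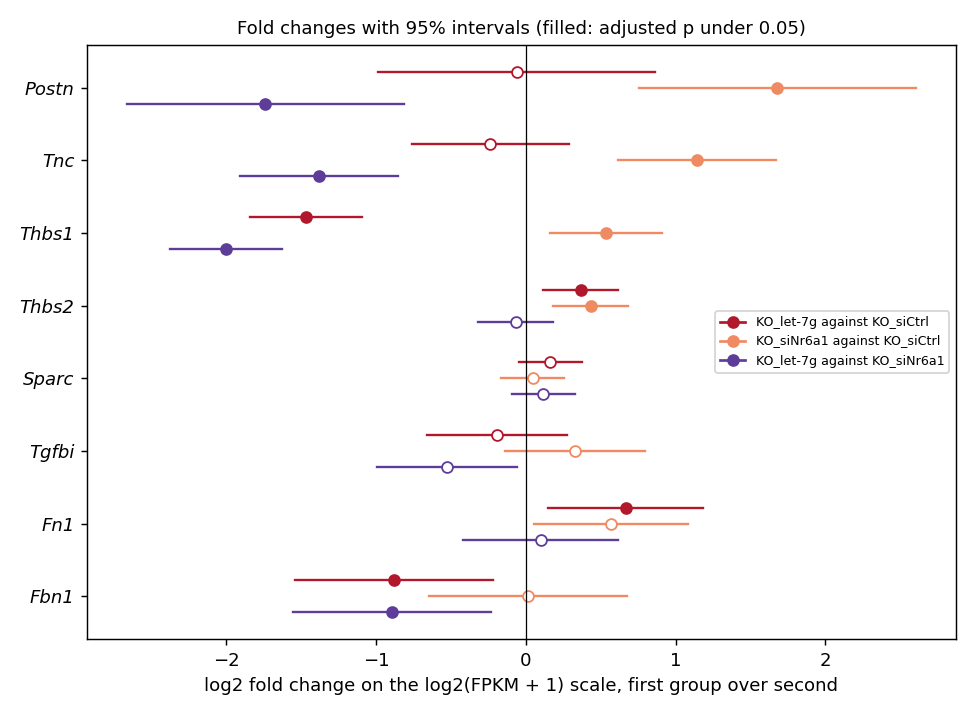
Log2 fold changes on the log2(FPKM + 1) scale of the 8 tested genes, first group over second, in 3 comparisons, with 95% intervals; filled points have an adjusted p under 0.05. Postn and Tnc lie right of 0 for KO_siNr6a1 against KO_siCtrl (1.68 and 1.14), and Thbs1 lies left for KO_let-7g against KO_siCtrl (-1.47) and right for KO_siNr6a1 (0.54).

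Counted together, 4 of the 8 tested genes were called in KO_let-7g against KO_siCtrl, where 45.6% of all genes were called. Thbs2 and Fn1 rose and Thbs1 and Fbn1 fell, and under median-of-ratios scaling, where Thbs2 and Fn1 lost their calls, Thbs1 and Fbn1 were left. In KO_siNr6a1 against KO_siCtrl, Postn, Tnc, Thbs1 and Thbs2 rose and none fell, where 29.4% of all genes were called, 13.2% higher and 16.3% lower. In KO_let-7g against KO_siNr6a1, Postn, Tnc, Thbs1 and Fbn1 fell and none rose, where 40.9% of all genes were called, 13.3% lower and 27.6% higher. The median log2 change of the 8 was -0.13, 0.48 and -0.71 in these comparisons, beside 0.08, -0.06 and 0.12 over all genes. The first 2 comparisons and the genotype contrast share the KO_siCtrl libraries. In KO_siCtrl against WT_siCtrl, 6 of 8 had groups that did not overlap, beside 57.2% of all genes (54.3% were called by limma), and 5 of 8 had a log2 difference below 0, from which nothing is read since the genes were chosen with that contrast known.

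Other matricellular genes, 17 of 27 tested, gave 6 higher and 2 lower calls in KO_siNr6a1 against KO_siCtrl, where 29.4% of all genes were called. Those with the smallest adjusted p were Smoc1, Fstl1 and Smoc2. Smoc1 averaged 7.35 ± 0.569 FPKM in KO_siNr6a1 and 1.92 ± 0.286 in KO_siCtrl, Fstl1 196 ± 10.1 and 101 ± 6.15, and Smoc2 22.99 ± 2.78 and 6.14 ± 2.69 (SD, n = 3 each; limma adjusted p = 1.7e-05, 6.77e-05 and 0.00109). Sparcl1, a close relative of Sparc, was not called (log2 difference 0.44, limma adjusted p = 0.188). In KO_let-7g against KO_siCtrl, where 45.6% of all genes were called, 6 rose and 3 fell, led by Fstl1 (log2 change 0.61) and the thrombospondin Thbs3 (-0.90). Between the treatments, 1 rose and 5 fell in KO_let-7g against KO_siNr6a1, or 3 and 8 with the library number as a block. Without it, 27.6% of all genes were called higher and 13.3% lower there. Smoc1 (-1.09) and the bone matrix protein gene Dmp1 (-1.51) fell and the proteoglycan gene Agrn (0.53) rose. In KO_siCtrl against WT_siCtrl, where 29.1% of all genes were called higher and 25.2% lower, 2 rose and 9 fell, among them the bone sialoprotein gene Ibsp (log2 change -4.13), Fstl1 (-1.27) and Smoc1 (-1.23). Ibsp and Tnn, both among those that fell, averaged 0.0434 and 0.0386 FPKM in KO_siCtrl, against 18.8 and 2.95 in WT_siCtrl. Both met the minimum for a test through WT_siCtrl, which largely fixed their calls.

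Of 16 tested genes of elastic fibres and microfibrils, the structural company of Fbn1 and Eln, 4 rose and 2 fell in KO_let-7g against KO_siCtrl, or 6 and 4 with the library number as a block. Over all genes and without the block, 45.6% were called in that comparison and 40.9% in KO_let-7g against KO_siNr6a1. The share was 29.4% in KO_siNr6a1 against KO_siCtrl and 54.3% in KO_siCtrl against WT_siCtrl. Emilin1, an elastin microfibril glycoprotein, averaged 61.0 ± 5.85 FPKM in KO_let-7g and 122 ± 7.44 in KO_siCtrl. Ltbp4, a latent TGF-beta binding protein, averaged 4.93 ± 0.537 and 1.81 ± 0.390 FPKM, and Fbln5, a fibulin of elastic fibres, 1.94 ± 0.391 and 0.0972 ± 0.0227 FPKM (SD, n = 3 each; limma adjusted p = 0.000105, 0.000167 and 0.000497). All of these kept their direction against KO_siNr6a1 (log2 changes -1.13, 1.19 and 1.18), where 5 rose and 2 fell. In KO_siNr6a1 against KO_siCtrl 3 rose and 2 fell, or 3 and 4 with the block: Ltbp2 0.35, Ltbp3 -0.52 and Adamts10 -0.50. Between KO_siCtrl and WT_siCtrl 4 rose and 5 fell, with Ltbp2 at -2.68, the fibulin gene Efemp2 at -1.94 and the proteoglycan gene Vcan at 1.71.

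Of 15 tested enzymes and chaperones that modify and crosslink matrix, 8 fell and 2 rose in KO_let-7g against KO_siCtrl, where 18.2% of all genes were called lower and 27.5% higher. The lysyl oxidase genes Loxl4, Loxl2 and Loxl3 fell by 0.98, 0.94 and 0.76 on the log2 scale. In KO_let-7g against KO_siNr6a1, 8 fell and none rose, with Serpinh1, the collagen chaperone, at 399 ± 21.2 and 732 ± 39.9 FPKM and Lox at 194 ± 46.9 and 406 ± 9.31 (SD, n = 3 each; limma adjusted p = 2.19e-05 and 0.00106). In KO_siNr6a1 against KO_siCtrl 4 rose and 5 fell, with the lysyl hydroxylase gene Plod2 at 1.36, Serpinh1 at 0.53 and the procollagen proteinase gene Bmp1 at -0.61. In KO_siCtrl against WT_siCtrl 3 rose and 11 fell, with Loxl1 at -3.26 and the transglutaminase gene Tgm2 at 2.97. Over all genes, 13.3% were called lower and 27.6% higher in KO_let-7g against KO_siNr6a1. The shares were 16.3% and 13.2% in KO_siNr6a1 against KO_siCtrl, and 25.2% and 29.1% in KO_siCtrl against WT_siCtrl.

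Of 16 tested cell surface receptors, 3 rose and 6 fell in KO_let-7g against KO_siCtrl, and the integrin subunit genes led. Without the block, 45.6% of all genes were called in that comparison and 40.9% in KO_let-7g against KO_siNr6a1. The share was 29.4% in KO_siNr6a1 against KO_siCtrl and 54.3% in KO_siCtrl against WT_siCtrl. Itgb3 averaged 0.761 ± 0.273 FPKM in KO_let-7g and 4.32 ± 0.759 in KO_siCtrl, and Itgav, its partner in the vitronectin and periostin receptor, 31.5 ± 4.93 and 79.5 ± 11.3 FPKM. Itga5, of the fibronectin receptor, averaged 83.1 ± 4.15 and 130.2 ± 4.28 FPKM (SD, n = 3 each; limma adjusted p = 1.91e-05, 4.22e-05 and 5.15e-05). Against KO_siNr6a1, 2 rose and 8 fell, with Itgb3 at -1.74 and Itgb5 at -0.91. In KO_siNr6a1 against KO_siCtrl 1 rose and 3 fell, or 4 and 3 with the block: Cd47, a thrombospondin-1 receptor, changed by 0.55, and the syndecans Sdc1 and Sdc4 by -0.42 and -0.37. The contrast KO_siCtrl against WT_siCtrl had 10 that rose and 3 that fell, with Stab1 at 1.58, Itgb3 at 1.77 and Itga5 at 0.88. In WT_siCtrl Stab1 averaged 0.229 FPKM and Itgb3 0.559. Both met the minimum for a test through Dicer -/- libraries only, so the filter favoured their rise in this contrast.

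Among 16 TGF-beta ligands, receptors and SMADs, 2 rose and 5 fell in KO_let-7g against KO_siCtrl, and none rose and 7 fell against KO_siNr6a1, or 1 and 7 with the block. Without it, 45.6% and 40.9% of all genes were called in these comparisons. The share was 29.4% in KO_siNr6a1 against KO_siCtrl and 54.3% in KO_siCtrl against WT_siCtrl. Tgfbr1, the type I receptor, averaged 8.77 ± 1.76 FPKM in KO_let-7g, 29.1 ± 1.10 in KO_siNr6a1 and 30.3 ± 5.86 in KO_siCtrl (SD, n = 3 each; limma adjusted p = 2.25e-05 against KO_siNr6a1 and 1.08e-05 against KO_siCtrl). Lrrc32, which tethers latent TGF-beta, and Skil, a SMAD corepressor, changed by -1.44 and -1.13 in KO_let-7g against KO_siCtrl. In KO_siNr6a1 against KO_siCtrl the coreceptor gene Tgfbr3 alone was called, with a log2 change of 0.91, and with the library number as a block 2 rose and 1 fell. In KO_siCtrl against WT_siCtrl 4 rose and 6 fell, with Tgfbr3 at 1.57 and Tgfb3 at -0.98.

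Of 23 tested transcription factors of the mesenchymal and serum response type, 10 rose and 5 fell in KO_let-7g, and 8 rose and 3 fell in KO_siNr6a1, each against KO_siCtrl, the second count being 13 and 5 with the library number as a block. Without it, 45.6% and 29.4% of all genes were called in these comparisons. The share was 40.9% in KO_let-7g against KO_siNr6a1 and 54.3% in KO_siCtrl against WT_siCtrl. Klf4 averaged 37.9 ± 2.17 FPKM in KO_let-7g, 23.9 ± 5.89 in KO_siNr6a1 and 7.98 ± 0.951 in KO_siCtrl, and Tead2 39.97 ± 1.76, 28.8 ± 1.63 and 12.5 ± 0.205 FPKM (SD, n = 3 each). Snai2 in KO_let-7g and Prrx2 in KO_siNr6a1 changed by 1.75 and 1.51 against KO_siCtrl. Between the treatments 5 rose and 5 fell: Mkl1, a coactivator of serum response factor, and Yap1, the partner of TEAD factors, changed by -0.82 and -0.56 in KO_let-7g against KO_siNr6a1. For KO_siCtrl against WT_siCtrl, 6 rose and 8 fell, with the osteoblast factor gene Sp7 at -4.73, Snai2 at -2.35 and Tead4 at 3.12. Sp7 averaged 0.412 FPKM in KO_siCtrl and 38.6 in WT_siCtrl, and met the minimum for a test through WT_siCtrl, which largely fixed its call. Tead4 averaged 13.7 FPKM in KO_siCtrl and 0.679 in WT_siCtrl. It met the minimum through Dicer -/- libraries only, so the filter favoured its rise.

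**Figure D4:**
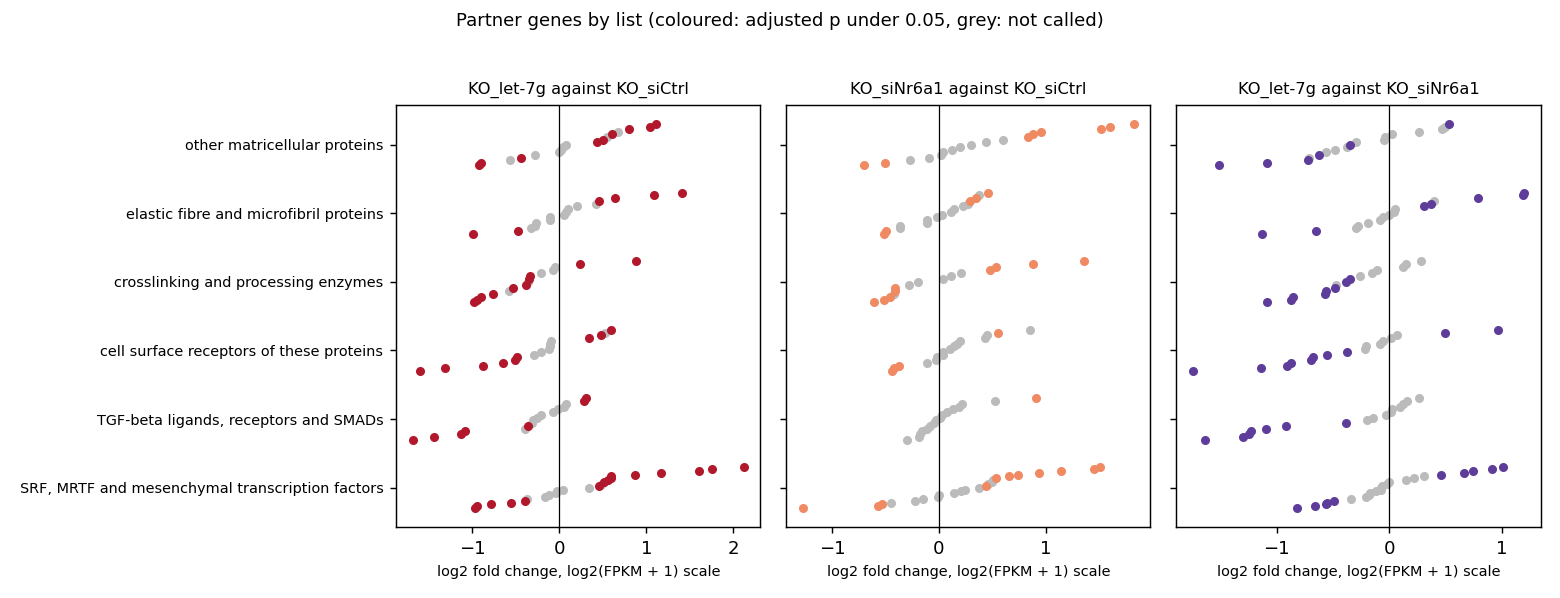
Log2 fold changes of the tested genes of the 6 lists, 1 row per list and 1 panel per comparison; points are genes, coloured where the adjusted p was under 0.05 and grey otherwise. The rows of crosslinking enzymes, receptors and TGF-beta genes lie mostly left of 0 in both panels with KO_let-7g first. There 8 and 8 enzymes, 6 and 8 receptors and 5 and 7 TGF-beta genes were called lower. Called higher were 2 and 0 enzymes, 3 and 2 receptors and 2 and 0 TGF-beta genes, beside 27.5% and 27.6% of all genes. Of all genes, 18.2% were called lower against KO_siCtrl and 13.3% against KO_siNr6a1.

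Seed matches to let-7 were also counted in the 96 of 103 tested genes of these 6 lists that had a 3′ UTR under the same symbol in GENCODE M21. The other 7 (Ctgf, Cyr61, Nov, Wisp1, Wisp2, Mkl1 and Mkl2) were not counted. Of the 96, among genes called lower in KO_let-7g against KO_siCtrl 10 of 28 (35.7%) held an 8mer or 7mer match in the 3′ UTR, against 4 of 25 called higher and 6 of 43 not called. The lists were chosen with results known and the counts carry no test. Of the 10212 genes past the filter with a 3′ UTR, 16.7% held a match, and the share among all genes called lower was not counted. Itgav, Itga5, Itgb5, Lrrc32 and Smad6 were called lower in the same comparison and held no match. The first of 2 matches of Tgfbr1 (chr4:47410828-47410850, plus strand) and the match of Itgb3 (chr11:104668417-104668439, plus strand, both GRCm38) are printed because these receptor genes fell most in their lists. Capitals mark the paired letters.
Tgfbr1 8mer: aggaggctggttgttCTACCTCA
Itgb3 7mer-m8: ggtgcttgtgtgtatCTACCTCt
The Tgfbr1 match printed is an 8mer, and its second is a 7mer-A1, the kind that Thbs1 holds.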

How the data were processed

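Polyadenylated RNA was sequenced in 12 libraries. The authors deposited 1 table of FPKM values, made with TopHat 1.2.0, Cufflinks 1.0.3 and the build mm9 per the submitters' processing notes; no source used here gives settings, annotation or strand use. FPKM is relative to all mapped fragments, so a shift in abundant genes moves all others, and no read counts or intervals from depth can be given. Relative depth came from ratios of the smallest FPKM steps.

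A linear model was fitted to log2(FPKM + 1) in limma 3.58.1 under R 4.3.3, for genes of at least 1 FPKM in at least 3 libraries: 1 coefficient per group over all 12 libraries, 8 residual degrees of freedom, a variance trend, a two-sided moderated test and Benjamini-Hochberg adjustment over 11801 genes, with calls at an adjusted p under 0.05. The procedure was tested on simulated data. Alternatives were another pseudocount (0.1), other filters, 3 other scalings, no trend, a library-number block, fits of 2 groups and leaving out each library. Deviations from group means of same-numbered libraries correlated at 0.127 to 0.465 in all 12 pairs, so numbers were taken as a sign of pairing, which rests on the values alone and on no label. All reported p-values come from the fit without the block unless the block is named, and block values are given where they change a call or move a count by over 1.5 times. Named genes were the 9, Nr6a1 and Dicer1, up to 3 called genes of smallest adjusted p per list and comparison, the nearest patterns and markers. The 9 genes and all lists were chosen with earlier results of these data known, and the gene lists are therefore a description. Sequences were read from GENCODE M21 and RefSeq tables of GRCm38.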

Additional observations from a re-analysis of the deposited data

How the results depend on the processing

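Each of 24 gene results (8 genes, 3 tested comparisons) was recomputed under 21 alternatives, 504 values in all: 461 kept direction and call, 27 lost a call, 6 gained a call and 10 changed sign. In KO_let-7g against KO_siCtrl the number of the 8 genes called was 4 as reported, 2 with no filter, 2 under median-of-ratios scaling and 2 to 4 when a library was left out (2 without KO_siCtrl library 0, 1 or 2 or KO_let-7g library 1). Leaving out a library gave 2 to 5 calls in KO_siNr6a1 against KO_siCtrl (2 without KO_siCtrl library 2) and 3 to 5 in KO_let-7g against KO_siNr6a1. With the replicate block the counts were 4, 5 and 5, and 5248 genes were called in KO_siNr6a1 against KO_siCtrl, against 3474 without it; beyond those given in the report, the block changed no call of the 9 genes. The log2 values that changed sign were not called in either form, and the cause was not tested. In KO_let-7g against KO_siCtrl they were Postn at 0.26 without KO_siCtrl library 1 and 0.29 without KO_let-7g library 2, and Tgfbi at 0.014 without KO_let-7g library 2; leaving out a library gave -0.33 to 0.29 for Postn and -0.33 to 0.014 for Tgfbi. In KO_siNr6a1 against KO_siCtrl they were Sparc at -0.0083 without KO_siNr6a1 library 1, and Fbn1 at -0.10 without KO_siCtrl library 2 and -0.14 without KO_siNr6a1 library 0, with ranges of -0.0083 to 0.095 and -0.14 to 0.17. In KO_let-7g against KO_siNr6a1 they were Sparc at -0.046 and Fn1 at -0.062 under median-of-ratios scaling, and Fn1 at -0.044 without KO_let-7g library 0 and -0.0045 without KO_siNr6a1 library 2, in a range of -0.044 to 0.21. Scaling moved the split of calls: the share higher was 60.2% in KO_let-7g against KO_siCtrl as reported and 49.3% by median of ratios, 44.8% and 56.3% in KO_siNr6a1 against KO_siCtrl, and 67.6% and 45.1% in KO_let-7g against KO_siNr6a1, where the median of all genes moved to -0.01 by median of ratios, against 0.12 as reported. Calls in the 6 lists numbered 45 to 59, 27 to 41, 40 to 52 and 62 to 70 without a library, for KO_let-7g and KO_siNr6a1 against KO_siCtrl, KO_let-7g against KO_siNr6a1 and KO_siCtrl against WT_siCtrl. With 3 libraries a group and unknown read numbers, small changes such as those of Thbs2 and Fn1 are near the limit of these data in the fit without the block. With the block, their limma adjusted p was 0.00268 and 0.000756 in KO_let-7g against KO_siCtrl. In KO_siNr6a1 against KO_siCtrl it was 0.00171 and 0.00314. The pairing that the block assumes rests on the values alone.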
